A study of Caenorhabditis elegans with 2 samples.

Results

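The genes that encode the subunits of the proteasome and both forms of the CDC-48 ATPase were examined for peaks of ALY-2, one of the Aly/REF-type mRNA export adaptor proteins of Caenorhabditis elegans. Members were chosen by gene name alone: protein-coding genes named pas, pbs, rpt or rpn, with cdc-48.1 and cdc-48.2. This gave 35 of 19973 nuclear protein-coding genes, made up of 14 core particle genes (7 pas and 7 pbs), 19 regulatory particle genes (6 rpt and 13 rpn) and the 2 cdc-48 genes. The theme was selected on earlier results of these same data, in which a peak at cdc-48.1 was among the strongest, so all values here are descriptions without a test. ALY-2 binding was measured by ChIP-seq, in which DNA recovered with the tagged protein is sequenced, in whole L4 larvae (the last larval stage) of strain OP217, which has the genotype unc-119(ed3) III; ddIs172. The transgene adds GFP-FLAG to the C-terminus of ALY-2, and the larvae were pooled males and females. There was 1 group, with 2 biological replicates of 1 transgenic line, and the values are peak lists, so the read depth behind them is unknown. The labels do not say whether the replicates came from separate cultures, and the control was not analysed here.

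The proteasome degrades proteins marked with ubiquitin. Its core particle is a barrel of alpha subunits (pas) and beta subunits (pbs), of which some beta subunits carry the proteolytic sites, and it is capped by a regulatory particle that binds, unfolds and feeds in the substrate. The regulatory particle holds a ring of ATPases (rpt) and non-ATPase subunits (rpn). CDC-48, called p97 or VCP in mammals, is a separate AAA ATPase that extracts ubiquitinated proteins from membranes and complexes and hands many of them to the proteasome.

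The strongest peaks at the cdc-48 genes differed in where they lay, and their sequences are shown for that reason. At cdc-48.1 (chrII:10560036-10563407, minus strand) the peak spanned chrII:10563369-10563738 in ce11, and its summit lay 147 bp upstream of the gene start. At cdc-48.2 (chrII:8138496-8141230, plus strand) the peak spanned chrII:8141102-8141471, and its summit lay 57 bp past the end of the gene, in the last coding exon of ints-11. That gene is read in the opposite direction and encodes the catalytic subunit of the Integrator complex, which processes small nuclear RNAs. A weaker peak of cdc-48.1 had its summit inside C06A1.8, a 218 bp snoRNA gene in an intron of cdc-48.1 and on its strand. The first sequence is chrII:10563491-10563609 (minus strand), the second chrII:10560842-10560994 (minus strand) and the third chrII:8141286-8141429 (plus strand), each read 5′ to 3′ from the WBcel235 genome, which is ce11. In the sequences at the strongest peaks, capitals mark the bases between the outermost summits of the combined and replicate lists, 39 bp at cdc-48.1 and 103 bp at cdc-48.2. In the snoRNA sequence, capitals mark the first 93 bp of the snoRNA gene.
cdc-48.1 upstream peak: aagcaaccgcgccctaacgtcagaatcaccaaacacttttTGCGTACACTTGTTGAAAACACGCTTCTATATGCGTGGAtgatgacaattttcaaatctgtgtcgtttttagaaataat
C06A1.8 start within cdc-48.1: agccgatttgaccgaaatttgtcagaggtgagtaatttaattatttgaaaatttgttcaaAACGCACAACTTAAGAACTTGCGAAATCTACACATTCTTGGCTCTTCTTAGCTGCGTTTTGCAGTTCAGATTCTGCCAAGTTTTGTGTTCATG
cdc-48.2 downstream peak: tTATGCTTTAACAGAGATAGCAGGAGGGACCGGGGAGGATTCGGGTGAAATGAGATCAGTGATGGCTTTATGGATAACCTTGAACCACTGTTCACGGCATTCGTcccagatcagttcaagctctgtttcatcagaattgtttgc

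Of the authors' lists on ce11, 4 were read. The optimal-threshold list of IDR, the irreproducible discovery rate, which scores how well a peak's rank repeats, is called reproducible here. It held 193 peaks, and these were exactly the 193 strongest of the combined list of 3341 peaks. The replicate lists held 17453 peaks (replicate 1) and 29384 (replicate 2). The combined and replicate lists are permissive: they hold weak peaks and background as input for IDR. The highest −log10 q was 2.48 in the combined list, 1.94 in replicate 1 and 3.10 in replicate 2. Among combined-list peaks at members it was 2.48 for the strongest of cdc-48.1, cdc-48.2 and rpn-1, and 1.51 at pas-5. It was 0.291 at pas-7, 0.0848 at rpn-8, 0.0792 at rpt-5 and, as the lowest, 0.0300 at rpn-7. A combined-list peak is therefore a listed interval and not by itself a binding site. Signal is the authors' own value per peak on an unstated scale, so it is compared within a list only. Its median was 37.5 in the reproducible list, 19.5 in the combined list, 8.88 in replicate 1 and 4.95 in replicate 2. A gene had a peak when at least 1 bp of the peak fell in the gene body, the 1000 bp upstream or the 500 bp downstream.

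Proteasome and cdc-48 genes held combined-list peaks more often than protein-coding genes in general. In the full combined list the share was higher in the regulatory particle than in the core particle, but that contrast depended on the peaks used. A reproducible peak was present at 3 of 35 members, 8.57%, against 1.27% of all protein-coding genes. These were cdc-48.1, cdc-48.2 and rpn-1, which encodes a large scaffold subunit of the regulatory particle, and no core particle gene was among them. The share includes the cdc-48.1 peak, which was known when the theme was selected. Apart from the cdc-48 genes, 0 of 14 core and 1 of 19 regulatory particle genes (5.26%) had a reproducible peak. In the combined list 16 members had a peak, 45.7% against 16.1% of all protein-coding genes. They were 2 of 7 pas, 2 of 7 pbs, 4 of 6 rpt, 6 of 13 rpn and both cdc-48 genes, or 28.6% of the core particle and 52.6% of the regulatory particle. The share of 45.7% also includes cdc-48.1, whose peak was known beforehand, so the 2 cdc-48 genes are not compared as a class. With the 3341 strongest peaks of replicate 2 alone, 7 of 14 core and 14 of 19 regulatory particle genes had a peak, the same order. With those of replicate 1 alone the counts were 4 of 14 and 5 of 19, and the regulatory particle no longer had the higher share. With combined-list peaks above the median signal, 4 of 14 core and 6 of 19 regulatory particle genes had one, a smaller gap. With the gene body alone as the window, 1 core and 9 regulatory particle genes kept a combined-list peak. Windows were longer in the regulatory particle, with a median of 3453 bp against 2518.5 bp in the core particle.

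The whole replicate lists hold peaks at most protein-coding genes, and the ratio of the members' share to the background was smaller there. In replicate 1 a peak was found at 23 of 35 members, 65.7% against 55.6% of all protein-coding genes. Core and regulatory particle genes had nearly the same share there, 64.3% and 63.2%. In replicate 2 every one of the 35 members had a peak, against 69.0% of all protein-coding genes. The 23 members of replicate 1 were therefore also those with a peak in both lists, against 44.4% of all protein-coding genes, and the other 12 had one in replicate 2 alone. With replicate 1 and replicate 2 each reduced to their 3341 strongest peaks, 11 and 23 members had a peak, where the shares over all protein-coding genes were 16.2% and 15.7%. A total of 9 members were in both reduced lists, against 6.06% of all protein-coding genes. The bar plot of genes with a peak by list shows these shares.

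**Figure D1:**
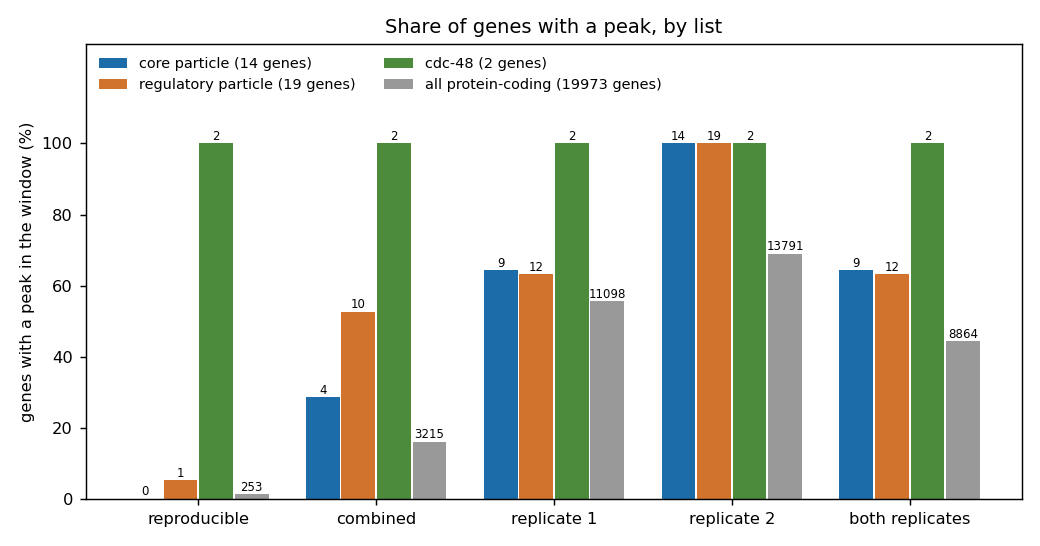
Share of genes with at least 1 peak in the window (%, vertical axis) in the reproducible, combined and replicate lists and in both replicate lists, for core particle, regulatory particle, cdc-48 and all protein-coding genes, with gene counts above the bars. In the combined list the bars stand at 28.6% for the core particle and 52.6% for the regulatory particle, against 16.1% for all protein-coding genes, and in replicate 2 every member has a peak.

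Backgrounds matched for window length or chromosome gave shares close to or below those over all protein-coding genes. Members had a median window of 2992 bp, shorter than the 3527 bp of all protein-coding genes. Among the 5871 protein-coding genes with windows of 2565 to 3510 bp, the quartiles of the member windows, 10.6% had a combined-list peak and 0.818% a reproducible one. No member lies on the X chromosome, and over autosomal genes alone these shares were 16.7% and 1.39%. Per kb of window, members held 0.202 combined-list summits, against 0.0436 over all protein-coding genes. The value was 0.112 in the core particle, 0.203 in the regulatory particle and 0.549 in the cdc-48 genes. The last rests on 5 summits in 2 genes, 4 of them at cdc-48.1, whose peak was known when the theme was selected.

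Most of the peaks could not be assigned to the member alone. The 16 members held 23 combined-list peaks, and 18 of these, 78.3%, also lay in the window of another protein-coding gene, against 57.1% of the gene-peak pairs over all protein-coding genes. The median number of other protein-coding windows that overlapped a window was 2 for members and 2 for all protein-coding genes. Counting only peaks that lay in no other protein-coding window, 3 members (cdc-48.1, rpn-1 and rpt-6) had a combined-list peak, 8.57% against 6.77%, and none had a reproducible one, against 0.416%. That share is near the background. Counting only peaks whose nearest gene start was the member's, 8 members had one, 22.9% against 7.69%, and cdc-48.1 alone had a reproducible one, where the background was 0.411%.

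Both cdc-48 genes were among the first 4 members by highest signal in the combined list and in each replicate. The upstream peak of cdc-48.1 had a signal of 20.9 in replicate 1, higher than 99.6% of that list, and 35.2 in replicate 2, higher than 99.9%. In the combined list it reached 52.9, which ranked 19 of 3341. Its summit lay within 200 bp of the gene start in all of these lists, at 124 bp upstream in replicate 1, 162 bp in replicate 2 and 147 bp in the combined list. The peak also reached the window of C06A1.6, a protein-coding gene on the same strand.

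Inside cdc-48.1 the lists differed more. The peak at C06A1.8, with its summit 32 bp into the snoRNA gene and 2505 bp from the cdc-48.1 start, had a signal of 29.9 in the combined list. It was at 18.9 in replicate 1, ranked 133, and at 9.92 in replicate 2, ranked 2390. A coding exon peak 1222 bp from the start (22.4) and a peak 304 bp past the gene end (18.4) had no overlapping peak in replicate 1. In replicate 2 the exon site had a peak of 6.90 at the same summit and an overlapping one of 9.67, and the downstream site one of 12.8. The strongest of the 4 combined-list peaks is thus the one that ranked high in both replicates, and the snoRNA peak ranked high in replicate 1. Within the gene body, the strongest replicate 2 peak (19.5, ranked 258) had its summit 3197 bp from the start. That peak overlapped no replicate 1 or combined-list peak. A second snoRNA gene, C06A1.9, starts 343 bp into cdc-48.1, and no combined-list summit lay in it.

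**Figure D2:**
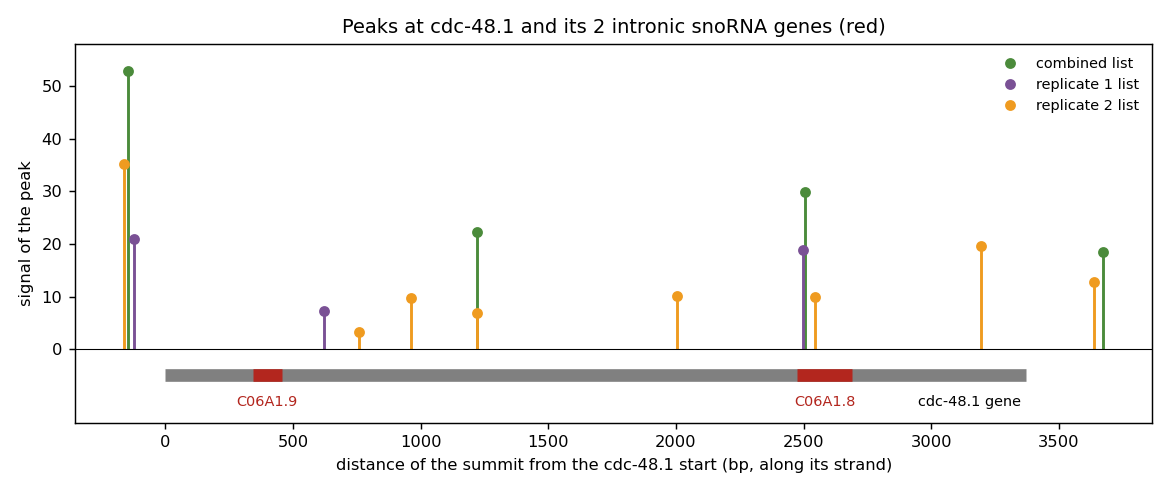
Peaks at cdc-48.1: distance of each summit from the gene start along its strand (bp, horizontal axis) against the authors' signal (vertical axis) in the combined, replicate 1 and replicate 2 lists, with the gene in grey and its intronic snoRNA genes in red. Only the sites near 147 bp upstream and 2505 bp downstream of the start carry a summit from all 3 lists.

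cdc-48.2 had 1 combined-list peak, the downstream one, with a signal of 41.1, which ranked 64. It had a signal of 16.4 in replicate 1, higher than 98.0% of that list, and 26.8 in replicate 2, higher than 99.8%. The combined and replicate 2 summits coincided at 2791 bp from the cdc-48.2 start, and the replicate 1 summit lay at 2893 bp. The nearest gene start was that of ints-11, 2191 bp away, so the summit lay at the convergent ends of both genes and far from either start. No combined-list peak lay upstream of cdc-48.2, in contrast to cdc-48.1.

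Among the non-ATPase subunits of the regulatory particle, rpn-1 (chrIV:6906420-6909913, minus strand) had the strongest peak. It lay at chrIV:6906196-6906565, with its summit 39 bp past the rpn-1 end, and had a combined signal of 41.6, ranked 61. Its signal was 23.9 in replicate 1, the highest of any member and ranked 30 in that list, and 11.4 in replicate 2, ranked 1517. The replicates thus placed this peak at different heights in their lists. The summit fell inside the 3′ UTR of T22D1.17, and the nearest start was that of T22D1.8, so the peak has more than 1 candidate gene. A second peak in a coding exon of rpn-1 (18.8) was overlapped in replicate 2 (9.0) and by no peak of replicate 1.

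The other rpn peaks were weaker and mostly sat beside a neighbour. rpn-2, the other large scaffold subunit, had a peak of 23.3 with its summit 100 bp past its end, in the 3′ UTR of sna-3, with 8.74 in replicate 1 and 19.8 in replicate 2. rpn-9, a lid subunit, had a peak of 23.4 with its summit 302 bp past its end, in an intron of fndc-1, with 9.37 in replicate 1 and 15.0 in replicate 2. At the lid subunit gene rpn-3 there were 3 peaks, at 17.5, 25.7 and 20.5. The first and second had summits 958 and 698 bp upstream of rpn-3, within hsp-110, which encodes a chaperone and is read away from rpn-3, and the third lay in the last part of rpn-3 beside mrpl-32. rpn-7, also in the lid, had a peak 102 bp after its start with the lowest signal of all 23, 17.0 in the combined list. In replicate 1 a peak of 7.49 had its summit 47 bp after the start and one of 11.7 had its summit 190 bp upstream, and the overlapping replicate 2 peak had 5.61. The lid subunit gene rpn-8 had one 148 bp upstream (18.2), overlapped by a peak of 12.2 in replicate 2 and by none in replicate 1, between rpn-8 and the divergent mrps-6. An intron of rpn-8 holds the snoRNA gene R12E2.17, 678 bp from its start, and no combined-list peak of rpn-8 lay within the gene.

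Of the ATPase ring genes, 4 of 6 had a combined-list peak. The highest, 29.7, was at rpt-1, with its summit 168 bp past the gene end near the snRNA gene T11F9.15, and the replicate signals were 12.02 in replicate 1 and 16.3 in replicate 2. rpt-2 had a peak of 22.0 at 8 bp after its start, and rpt-5 one of 18.1 at 551 bp after its start. Both were overlapped in replicate 2 (12.8 and 7.67) and by no peak of replicate 1. rpt-6 had a peak of 17.5 with its summit 243 bp upstream and one of 18.5 with its summit 349 bp after the start. The first was 17.6 in replicate 2 and absent from replicate 1, and the second was 10.8 in replicate 1 and 4.31 in replicate 2, so each replicate favoured a different site. rpt-3 and rpt-4 had no combined-list or replicate 1 peak, and their highest replicate 2 signals were 7.23 and 9.44.

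The core particle genes had 4 combined-list peaks, 1 each at pas-5, pas-7, pbs-2 and pbs-5, and their median of 28.6 was above the 22.7 of the regulatory particle genes with a peak and the 20.02 of all protein-coding genes with a peak. The strongest, at the alpha subunit gene pas-5, had a signal of 31.7, 17.6 in replicate 1 and 15.5 in replicate 2. Ranked 209, it was just outside the reproducible list, whose lowest signal was 32.6. Its summit was 990 bp upstream of pas-5, close to the 1000 bp limit, and lay inside the snoRNA gene F25H2.15, 94 bp from the start of that gene. It also fell in the window of ubc-25, a ubiquitin-conjugating enzyme gene, so the same peak is counted for both. At pas-7, also an alpha subunit gene, the summit of a peak of 21.3 lay 215 bp upstream, beside the start of the ncRNA gene ZK945.12. It had signals of 9.39 in replicate 1 and 9.62 in replicate 2.

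Both beta subunit genes with a combined-list peak encode subunits that carry a proteolytic site, and both peaks lay past the gene end. pbs-2 had a peak of 29.3 with its summit 264 bp past its end, where the nearest start was that of the alpha-tubulin gene tba-2. It was 21.5 in replicate 2 and had no overlapping peak in replicate 1. pbs-5 had a peak of 27.8 with its summit 160 bp past its end, in the 3′ UTR of Y54E5A.8, with 16.1 in replicate 1 and 10.5 in replicate 2. The gene of the remaining proteolytic beta subunit, pbs-1, had no combined-list peak in its window, and a strong one of 41.4 (ranked 63) lay 149 bp beyond the upstream limit, nearest to the start of rpi-2. The other peaks just outside a window lay 161 bp beyond the upstream limit of rpt-2 (24.4) and 17 bp beyond the downstream limit of rpn-8 (17.8). The map of peak positions shows the 23 combined-list peaks along the members.

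**Figure D3:**
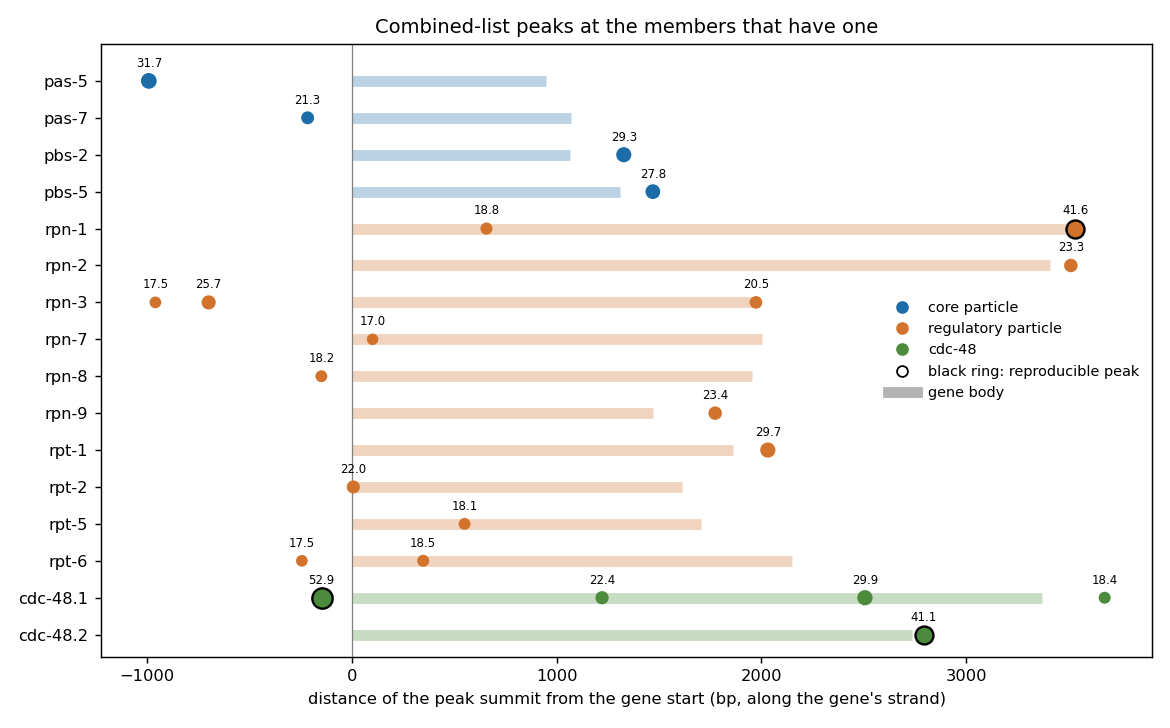
Combined-list peaks at the 16 members that have one: distance of the summit from the gene start along the gene's strand (bp, horizontal axis), with the gene body as a bar, the authors' signal beside each point and a black ring for a reproducible peak. The reproducible peaks lie 147 bp upstream of cdc-48.1 and just past the ends of cdc-48.2 and rpn-1, and 8 members have a summit past their end.

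Summits past the gene end made up a larger share at members than over all protein-coding genes in the combined list and in both replicates, although upstream summits were the most frequent class in replicate 2. Of the 23 summits, 8 (34.8%) lay past the gene end, at 39 to 304 bp with a median of 164 bp, against 18.9% of the 4348 gene-peak pairs over all protein-coding genes. Each came from a different member, and at 7 members the strongest peak was of this kind. All of these peaks except the one at cdc-48.1 also lay in the window of another protein-coding gene. Only at rpn-2 was the nearest gene start the member's own. In replicate 1 the share past the gene end was 30.2% of 43 pairs against 14.7%, and in replicate 2 it was 22.8% of 123 pairs against 15.0%. Upstream summits made up 30.4% against 26.4% in the combined list, 25.6% against 23% in replicate 1 and 32.5% against 24.3% in replicate 2. Coding exon shares had no common direction, at 17.4% against 23.7% in the combined list, 20.9% against 25.2% in replicate 1 and 27.6% against 24.7% in replicate 2. Introns held 4.35% against 17.4% in the combined list, the single intron summit being the one at C06A1.8, 9.30% against 27.5% in replicate 1 and 6.5% against 25.3% in replicate 2. Summits within the first 200 bp of the gene made up 8.70% against 3.91% in the combined list, 6.98% against 4.28% in replicate 1 and 4.07% against 4.27% in replicate 2. The upstream and downstream parts of a window had fixed lengths. Member windows were shorter, with a median of 2992 bp against 3527 bp over all protein-coding genes. The fixed parts therefore took up more of a typical member window. The position shares were not adjusted for this, and how far it bears on the differences was not tested. The median signal of the 23 peaks was 22.4, with a range of 17.0 to 52.9. GC content within 100 bp of the summit had a median of 36.8% (27.9 to 46.8), against 39.8% over all combined-list peaks.

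The replicates shared part of the ranking of members by highest signal. All 23 combined-list peaks at members were overlapped by a replicate 2 peak, and 15 also by a replicate 1 peak. The combined list was made from the pooled alignments of these same replicates, and the replicate lists are permissive. Such overlap is therefore no independent support, and the share over all combined-list peaks is not given here. By their highest signal in each list, the first 10 members in replicate 1 were rpn-1 (23.9), cdc-48.1 (20.9), pas-5 (17.6), cdc-48.2 (16.4), pbs-5 (16.1), pbs-3 (13.4), rpn-3 (13.1), rpt-1 (12.02), pas-1 (11.9) and rpn-7 (11.7). In replicate 2 the first 10 were cdc-48.1 (35.2), cdc-48.2 (26.8), pbs-2 (21.5), rpn-2 (19.8), rpt-6 (17.6), rpt-1 (16.3), pas-5 (15.5), rpn-9 (15.0), rpn-3 (14.7) and rpt-2 (12.8). The 5 members in both are cdc-48.1, cdc-48.2, pas-5, rpn-3 and rpt-1. Across the 23 members with a peak in both lists, the highest signals had a Pearson r of 0.503 and a Spearman rho of 0.396, given as a description since the members share the same libraries. Without cdc-48.1 these were 0.302 and 0.322 over 22 members. The highest summits of the replicates lay within 200 bp of each other at 9 of the 23 members, and at 16 some replicate 1 peak overlapped a replicate 2 peak. Without the same shares over all protein-coding genes, these counts are not read as a trait of the members.

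**Figure D4:**
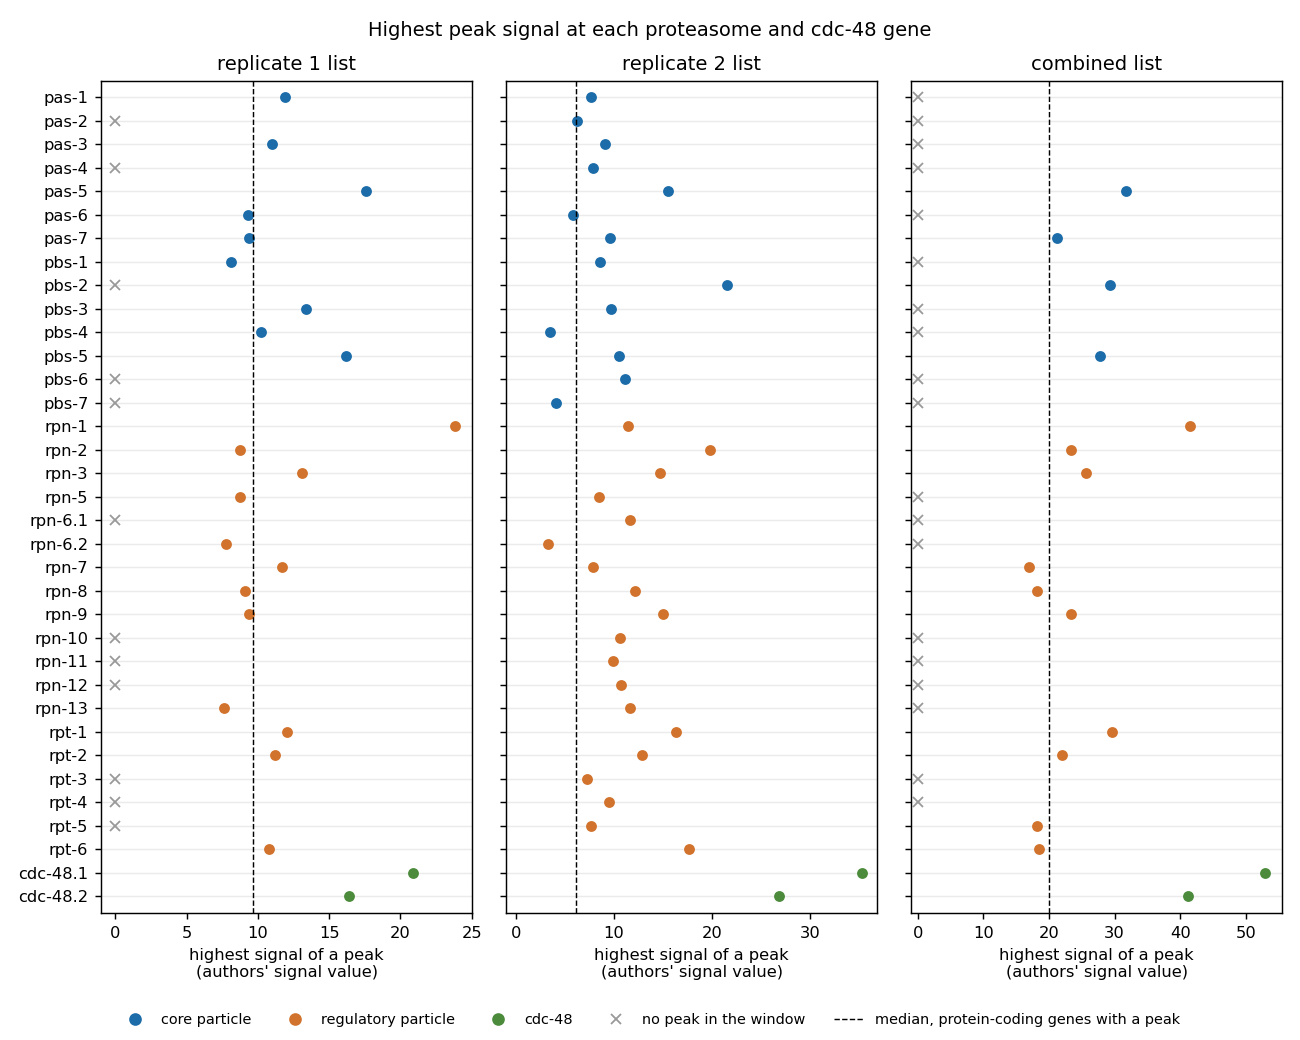
Highest signal of a peak in the window of each of the 35 members (authors' signal value, horizontal axis) in the replicate 1, replicate 2 and combined lists, with crosses for no peak and a dashed line at the median of the protein-coding genes that have one (9.64, 6.12 and 20.02). cdc-48.1 is the farthest right in replicate 2 and in the combined list, and rpn-1 in replicate 1.

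All 19 members that lacked a combined-list peak had a replicate 2 peak. The highest signal per gene was between 3.22 and 11.6 (median 8.59). At 16 of these genes it exceeded 4.95, the median over single peaks of the replicate 2 list. Taking the highest of several peaks favours being above that value. Among all protein-coding genes 46.9% had a replicate 2 peak above the list median, against 91.4% of the 35 members. This share was not computed for genes without a combined-list peak. The lowest was 3.22 at rpn-6.2, a gene related to the lid subunit gene rpn-6.1, and that was above 2.31% of the list. The beta subunit genes pbs-4 and pbs-7, at 3.47 and 4.11, were the others below that median. The ubiquitin receptor genes rpn-10 and rpn-13 had 10.6 and 11.6, and rpn-11, which encodes the deubiquitinase of the lid, had 9.87. None of rpn-10, rpn-11, rpn-12 and rpn-6.1 had a replicate 1 peak. Over all 35 members the median of the highest signal was 10.5 in replicate 2, against 6.12 over the protein-coding genes with a peak there. In replicate 1 it was 11.002 over the 23 members with a peak, against 9.64. These medians leave out genes without a peak and so describe the genes with one.

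Other genes of the ubiquitin-proteasome system and its regulation were read from 5 lists, 64 genes in all. A combined-list peak was present at 26 of them (40.6%), against 16.1% of all protein-coding genes, and a reproducible one at 5 (7.81%), against 1.27%. The 5 genes rest on 4 distinct peaks. Unlike for the members, these counts were not limited to nearest-start or unshared peaks. Some genes, such as uba-1 and wdr-23, had a peak nearest to their own start. Others, such as ubc-25, ubq-2, cup-2 and otub-2, were counted only through peaks nearest to the start of another gene. The highest signals were at ubq-1, which encodes polyubiquitin, with 38.2 at 70 bp past its end, and at ubc-3, a ubiquitin-conjugating enzyme gene, with 36.3 at 39 bp past its end beside lsm-6. uba-1, the gene of the main ubiquitin-activating enzyme, had 3 peaks of 33.5, 32.3 and 28.1, the first being reproducible and in a coding exon. A reproducible peak of 33.1 lay 294 bp past the end of csn-5, which encodes the deneddylase of the COP9 signalosome, and within skn-1, so it counts for both genes. skn-1 encodes the transcription factor whose SKN-1A form raises proteasome gene expression. Over the 38 gene-peak pairs of the 5 lists, 8 summits (21.1%) lay past the gene end, against 18.9% over all protein-coding genes.

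By list, a combined-list peak was present at 11 of 27 genes of ubiquitin activation and conjugation (40.7%) and at both ubiquitin precursor genes. It was present at 8 of 19 cdc-48 cofactor and ER-associated degradation genes (42.1%) and 3 of 11 deubiquitinase and proteasome-associated genes (27.3%). The SKN-1A response had 2 of 5 genes (40%). The share over all protein-coding genes was 16.1%, and the lists of 2 and 5 genes are too small for their shares to be read as results. Among the cofactors, ufd-2, which encodes a ubiquitin chain elongation factor, had 30.0 at 118 bp past its end, near the start of pdha-1. The UBX-domain gene ubxn-3 had 25.6 upstream of its start, and ufd-1, whose product recruits CDC-48 to ubiquitinated proteins, had 20.03 with its summit 244 bp upstream. The cofactor list had a reproducible peak at 0 of 19 genes, where the background was 1.27%. Of the SKN-1A list, wdr-23, which encodes a negative regulator of SKN-1, had 25.6 in a coding exon.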

How the data were processed

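ALY-2 binding was measured in 2 biological replicates of 1 group. Per the submitters' file descriptions, the authors made a permissive peak list per replicate and one from pooled alignments, with a control alignment, and a list past the optimal IDR threshold. The deposited signal value of each peak is the authors' own, on an unstated scale, and was used within a list only. The deposited −log10 column holds the −log10 q-value. Aligner, peak caller and thresholds were not given in the sources used here. The 4 ce11 lists were used and the ce10 lists were not.

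Peaks were joined to the genes of Ensembl release 115 (WBcel235, the same assembly) by a strand-aware window, and summits were classed by position. Members and pathway lists were chosen with earlier results of these data known. Of the listed pathway names, uba-3, adrm-1 and pup-1 matched no gene name and were left out. The genes named are members and pathway genes with a reproducible or combined-list peak, the 10 highest members per replicate, both cdc-48 genes and nearest-start genes. Other neighbours whose gene or window holds a summit, the pbs, rpt and rpn genes given as having no combined-list peak, and genes beside peaks outside a window were named after their values were seen. No test was run, since there was 1 group and the members were selected with results known. Alternatives were other windows, overlap rules, thresholds, list sizes and single replicates. Counts limited to the nearest start or to unshared peaks, and the autosomal and window-length backgrounds, were added after seeing the data. The joining steps were checked on planted peaks. The software was matplotlib 3.10.9, scipy 1.17.1, numpy 2.4.6 and Python 3.11.15.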

Additional observations from a re-analysis of the deposited data

How the results depend on the processing

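Of 73 alternative values computed, 61 stayed within 1.5 times the main value. The count of members with a combined-list peak was 16 and ranged over 11 to 23 when a single replicate's 3341 strongest peaks were used, and the reproducible count of 3 ranged over 2 to 3 with the 193 strongest. Limiting each replicate list to its 3341 strongest peaks left 11 members in replicate 1, 23 in replicate 2 and 9 in both, which follows from the shorter lists. Among limits chosen after seeing the data, counting peaks only where the member's start was nearest left 1 member with a reproducible and 8 with a combined-list peak, and counting only peaks in no other protein-coding window left 0 and 3. The gene body alone left 1 of 4 core particle genes in the combined list and 5 in both replicate lists. Combined-list peaks above the median signal left 6 regulatory particle genes and 4 core particle genes. Combined-list signals of cdc-48.1, cdc-48.2 and rpn-1 were the same under every window and overlap rule tried. That outcome was fixed, since each peak overlaps its gene body and the signal is a deposited value. These signals are counted among the 61 values and say nothing about robustness. No paired analysis was possible because the study has 1 group. Read depth is unknown, so weak or absent peaks cannot be set against coverage, and the permissive lists include background.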
